A study of Felis catus with 12 samples.

Results

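The contractile genes of smooth muscle and myofibroblasts examined here were CNN1, ACTA2, TAGLN, MYH11, MYL9, TPM2, SMTN and LMOD1, which are 8 of the 30785 genes listed for left ventricular tissue of 12 cats. They were chosen by name, and CNN1 was picked for its large range across these same libraries, so that its values are given as a description without a test. All 8 genes were listed, and 6 of them passed the filter on reads, whereas MYH11 and LMOD1 did not and are given by their values only.

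Tissue of the left ventricular free wall was collected post mortem from cats with naturally occurring disease, and 1 direct RNA library was made per cat, so that native RNA strands passed through the pore and no cDNA was sequenced. By the outcome listed for each cat number, cats with congestive heart failure (HF) gave 6 libraries, cats with arterial thromboembolism (ATE) gave 3 and the comparator group, in which no cardiac cause of death was known, gave 1. The libraries labelled as cats 22 and 29 are not among the cats listed as sequenced, were given no outcome, and entered only the levels, the comparison of flow cells and named alternatives. The 12 libraries carry 3 run identifiers in their names, taken here as flow cells: A (cats 11, 23, 30 and 31), B (cats 10, 15, 35 and 36) and C (cats 22, 29, 37 and 38). Cats with congestive HF were on flow cells A (cats 11, 30 and 31), B (cats 15 and 35) and C (cat 37), and each flow cell held 1 cat with ATE (cats 23, 10 and 38). No treatment, genotype or healthy control group is given in the labels, and there was no replicate library of a cat, so that p-values measure the spread between cats.

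Smooth muscle shortens when calcium activates a kinase that phosphorylates the regulatory light chain of myosin, which then pulls on actin filaments that carry tropomyosin. Calponin and transgelin bind these filaments, and the genes for the actin, the heavy chain and the binding proteins are switched on together by serum response factor and its partner myocardin. In the heart the programme belongs to the muscle coat of arteries and to pericytes, and part of it is taken up by fibroblasts that turn into myofibroblasts in wounded or scarring tissue.

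Each value below is the number of reads of a gene divided by 1 size factor per library, as deposited, and is called the value. The libraries held 789257 to 2263110 reads on genes, and 1 read was worth between 0.483 and 1.43. Intervals and floors cover counting error only. In bulk tissue, fewer cells of a type and less RNA per cell cannot be told apart.

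CNN1 encodes calponin, which binds actin and restrains the myosin ATPase. On flow cell A its value was 259 in cat 11, 76.6 in cat 23, 47.1 in cat 30 and 439 in cat 31. On flow cell B it was 19.2 in cat 10, 0 in cats 15 and 35 and 0.890 in cat 36, and on flow cell C it was 1.35 in cat 22, 0 in cat 29, 2.86 in cat 37 and 2.21 in cat 38. The 4 libraries of flow cell A thus stood above the other 8, which held 24 CNN1 reads in all against 1201. In the 3 libraries without a CNN1 read, a count of 0 allows values of up to 4.08 in cat 15, 2.36 in cat 35 and 3.33 in cat 29. The observed values on flow cell A were 11.5 (cat 30 against cat 15) to 186 (cat 31 against cat 35) times this floor of 3 reads per library. Counting error in the reads of flow cell A is left out of these ratios. Against the 4 libraries with 1 to 3 reads, the ratio ran from 16.5 (95% exact counting interval 4.4 to 139) for cat 30 over cat 37 to 494 (88.2 to 19530.2) for cat 31 over cat 36. The mean value was 206 ± 182 (SD, n = 4) on flow cell A and 3.31 ± 6.5 (SD, n = 8) elsewhere. The same values are listed here by outcome, which is no separate check because they chose CNN1. The 3 cats with congestive HF on flow cell A had 47.1 to 439 and the 3 on the other flow cells had 0 to 2.86. Of the cats with ATE, the cat on flow cell A had 76.6 against 19.2 and 2.21 elsewhere.

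TAGLN encodes transgelin (SM22), an actin-binding protein that marks early smooth muscle and myofibroblasts. Its value was 744 in cat 11, 231 in cat 23, 188 in cat 30 and 724 in cat 31 on flow cell A. It was 62.0 in cat 10, 28.6 in cat 15, 86.6 in cat 35 and 60.5 in cat 36 on flow cell B, and 134 in cat 22, 33.3 in cat 29, 127 in cat 37 and 43.4 in cat 38 on flow cell C. The groups did not overlap, and cats 11 and 31 stood well above all other libraries. The mean was 472 ± 304 (SD, n = 4) against 71.9 ± 40.6 (SD, n = 8), a difference of 2.63 in mean log2(value + 1) (95% interval 1.68 to 3.57, limma adjusted p = 0.00598). Without the libraries of cats 11 and 31, an alternative chosen after seeing the data, the difference was 1.72 (limma adjusted p = 0.213), and all other libraries still lay below those of cats 23 and 30. It was 2.45 (limma adjusted p = 0.0516) against flow cell C alone and 2.75 (limma adjusted p = 0.127) among the 6 cats with congestive HF alone.

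SMTN encodes smoothelin, a cytoskeletal protein of differentiated, contractile smooth muscle, and it went the other way. Its value was 72.9 in cat 11, 302 in cat 23, 297 in cat 30 and 108 in cat 31 on flow cell A. It was 472 in cat 10, 479 in cat 15, 419 in cat 35 and 267 in cat 36 on flow cell B, and 324 in cat 22, 258 in cat 29, 428 in cat 37 and 614 in cat 38 on flow cell C. The same 2 libraries, of cats 11 and 31, were now the lowest, while cats 23 and 30 lay inside the range of the other flow cells. SMTN fell by 1.26 on the log2 scale on flow cell A (95% interval -1.99 to -0.53, limma adjusted p = 0.0447). Without cats 11 and 31 the difference was -0.39 (limma adjusted p = 0.726), with edgeR on the recovered reads it was -1.07 (adjusted p = 0.0937), and the call was also lost in 7 of the 12 fits that left out 1 library. SMTN had 136 to 835 reads per library, against 1 to 20 for MYH11, and which cells gave the SMTN reads was not tested.

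ACTA2 encodes the smooth muscle actin that is the usual stain for both vascular smooth muscle and myofibroblasts, and it did not follow CNN1. Its value was 110 in cat 11, 126 in cat 23, 117 in cat 30 and 104 in cat 31 on flow cell A, a mean of 114 ± 9.39 (SD, n = 4). On the other flow cells it had a lowest value of 49.0 in cat 36, a median of 91.8 and a highest value of 152 in cat 29. The groups overlapped, and the difference was 0.36 (95% interval -0.28 to 1.0, limma adjusted p = 0.521). ACTA2 had 43 to 228 reads, which is 0.316% to 1.10% of the reads of skeletal actin ACTA1 and 0.540% to 3.79% of those of cardiac actin ACTC1, both near-identical relatives, so that its assignment is uncertain. Its rho with them over the 12 libraries was 0.26 and 0.29.

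MYH11 encodes the smooth muscle myosin heavy chain, the most specific marker of the mature smooth muscle cell. It had 1 to 20 reads per library. Its value was highest in cat 22 (17.6), cat 30 (16.8), cat 10 (12.4) and cat 23 (10.7) and lowest in cat 15 (1.36) and cat 31 (2.39). Cat 11, with the most TAGLN, had 3.86, and cat 31, with the most CNN1, had 3 MYH11 reads beside 551 of CNN1. The mean was 8.46 ± 6.67 (SD, n = 4) on flow cell A and 7.33 ± 5.36 (SD, n = 8) elsewhere, with overlapping ranges and no test. LMOD1 encodes leiomodin, which nucleates actin filaments in smooth muscle. It had 0 to 4 reads per library, so that no difference was detectable at this depth.

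MYL9, the regulatory light chain that is phosphorylated to start contraction, and TPM2, a tropomyosin, had overlapping values on the flow cells and varied with each other. The value of MYL9 was 810 in cat 11, 639 in cat 23, 479 in cat 30 and 1272 in cat 31, a mean of 800.1 ± 342 (SD, n = 4), and elsewhere it ran from 433 in cat 15 through a median of 898 to 1096 in cat 29. TPM2 was 14.5, 13.4, 6.73 and 42.3 in the same 4 libraries, and from 9.53 in cat 15 through a median of 15.2 to 29.9 in cat 35 elsewhere. Both had their highest value in cat 31, and their groups overlapped. The difference was -0.04 (95% interval -0.63 to 0.56, limma adjusted p = 0.953) for MYL9 and -0.02 (95% interval -0.91 to 0.87, limma adjusted p = 0.987) for TPM2. TPM2 had 7 to 53 reads, at most 0.193% of those of its cardiac relative TPM1, so that its assignment is uncertain.

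**Figure D1:**
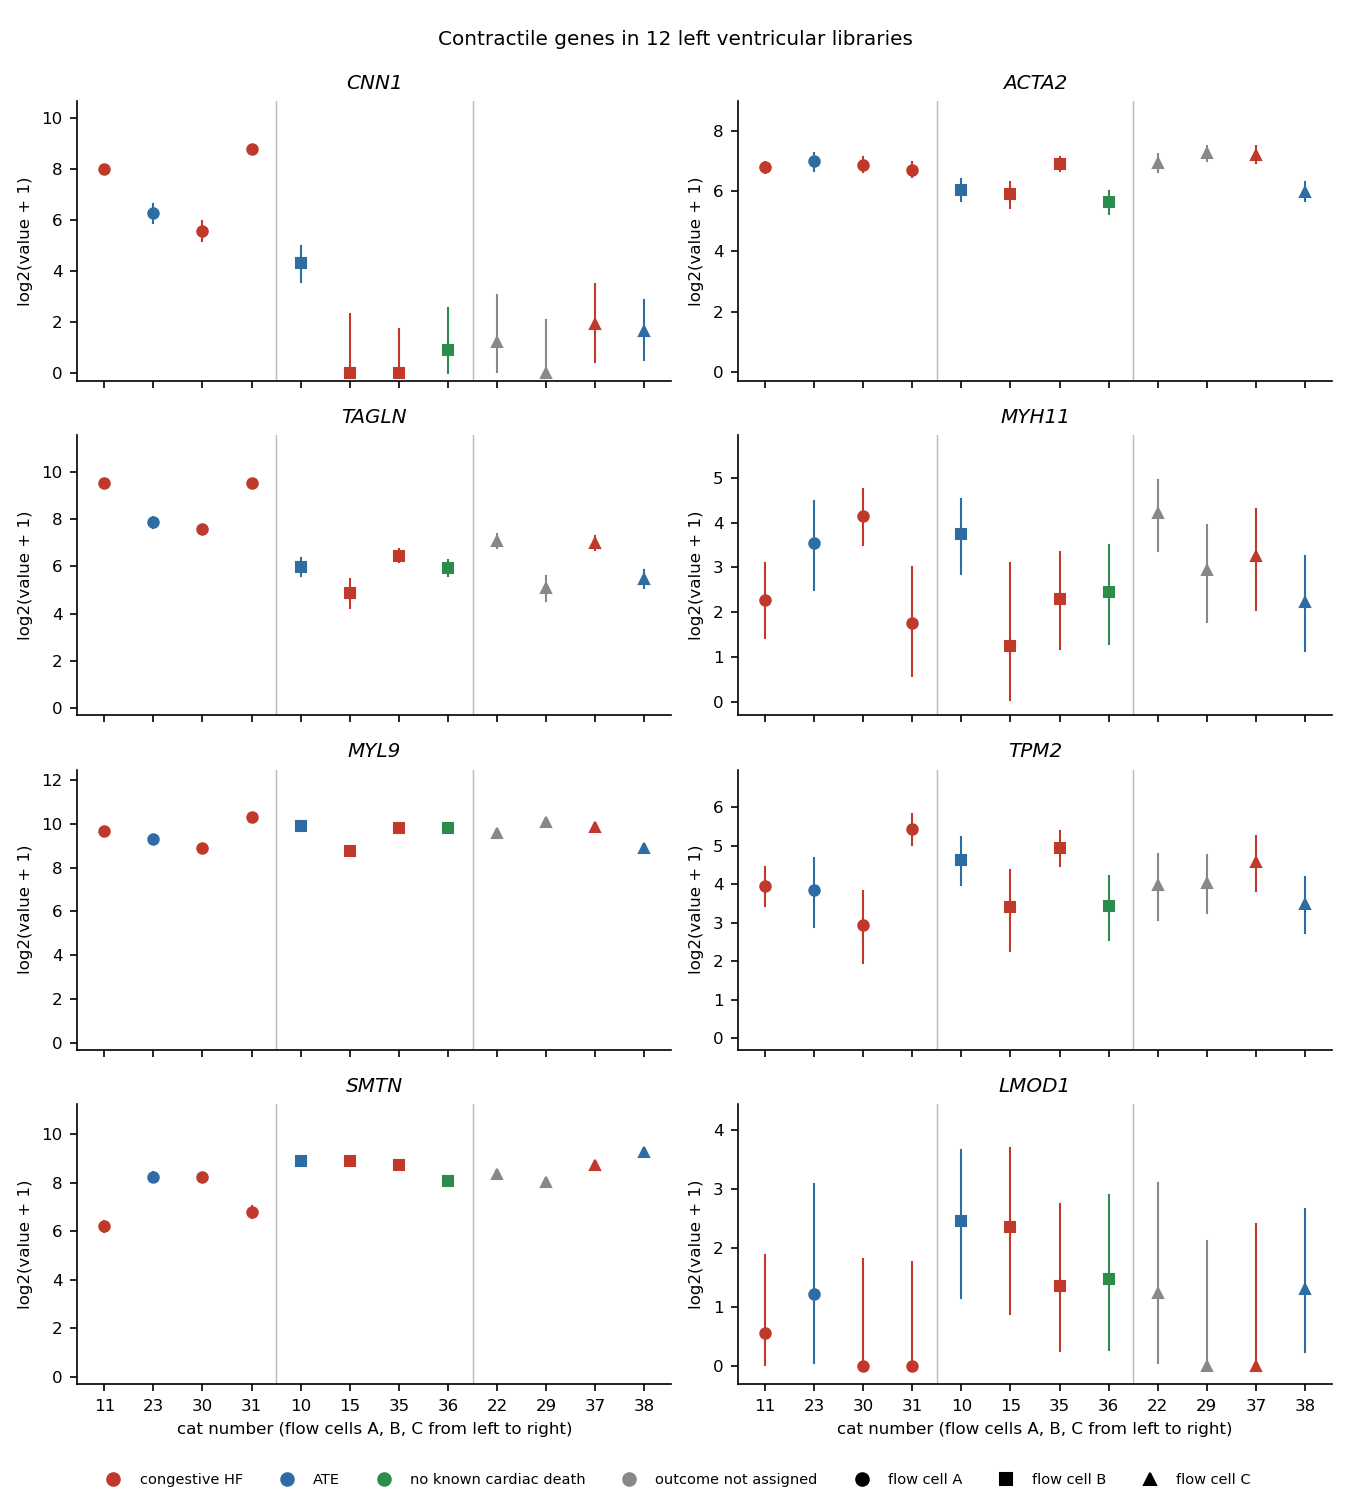
Value of each of the 8 genes in the 12 libraries as log2(value + 1), with the cat number on the horizontal axis, flow cells A, B and C from left to right, the outcome as colour and the flow cell as symbol; bars are 95% Poisson intervals of the reads and reach up to the floor of 3 reads where there is none. CNN1 and TAGLN are higher in the 4 libraries of flow cell A than in the other 8, SMTN is lowest in cats 11 and 31, and ACTA2, MYL9 and TPM2 overlap between flow cells.

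Among all genes tested, 446 of 8715 (5.12%) passed an adjusted p of 0.05 between flow cell A and the others with limma, 141 higher (1.62%) and 305 lower (3.5%). Of the 6 contractile genes tested, TAGLN was called higher and SMTN lower. CNN1, chosen for its range, had a difference of 5.90 and is not counted. Ranges that did not overlap were found for 369 of all tested genes (4.23%). Without the libraries of cats 11 and 31, 0 genes were called by limma and 860 had an unadjusted p under 0.05, against 1863 (21.4%) with all libraries. Each cat was on 1 flow cell, so that a flow cell and the cats on it cannot be told apart.

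**Figure D2:**
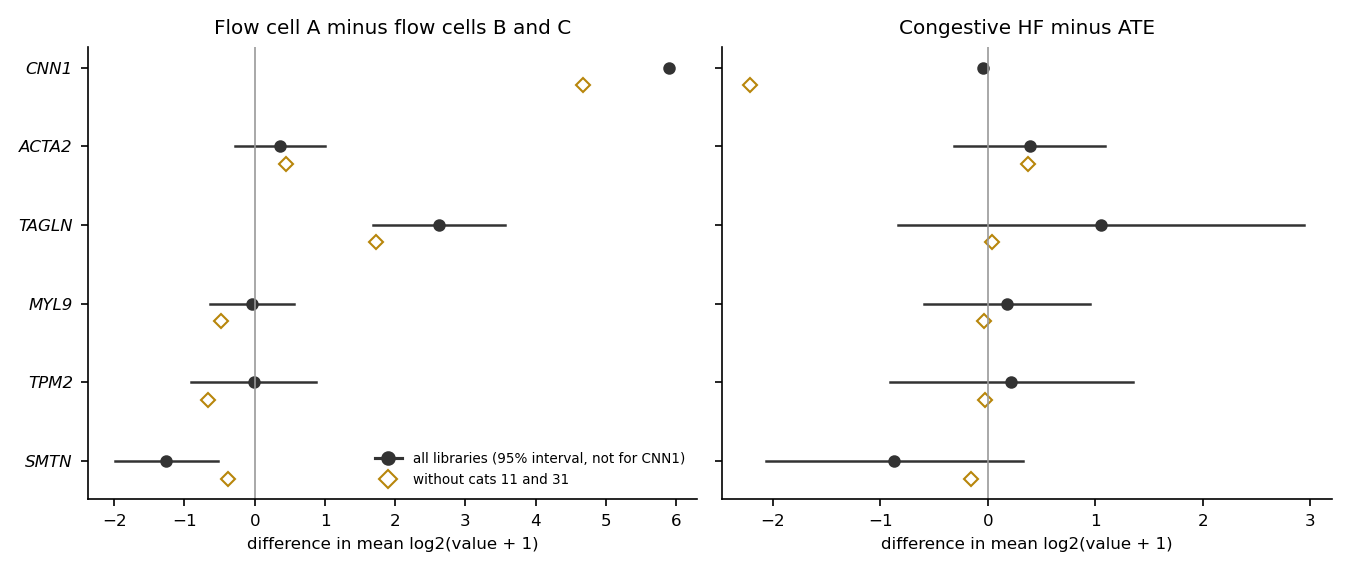
Difference in mean log2(value + 1) of the 6 tested contractile genes between flow cell A and the others (left) and between congestive HF and ATE (right); filled points are all libraries with the 95% limma interval, which is not drawn for CNN1, and open diamonds leave out cats 11 and 31. The differences of TAGLN and SMTN between flow cells are closer to 0 without these libraries, and every interval between outcomes spans 0.

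The coefficient of variation over the 12 libraries was 195% for CNN1, whose range chose it. For TAGLN it was 124%, larger than that of 98.9% of all tested genes. It was 57.8% for TPM2 and 46.2% for SMTN, larger than that of 78.9% and 62.8% of all tested genes. It was 34.4% for ACTA2 and 32.3% for MYL9, below the median of 40.0% over tested genes. Counting error alone, from the reads of each library, would give about 10.4% for CNN1 and 6.40% for TAGLN.

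As a description over 12 libraries, which share size factor, depth and flow cell, the 28 pairs of the 8 genes had a median Spearman's rho of 0.04, and 15 were positive. MYH11 had 1 to 20 reads and LMOD1 0 to 4 reads per library, so that their ranks carry much counting error. Among the 15 pairs of the 6 tested genes the median rho was 0.13, and 10 were positive. With flow cell means removed the median of these pairs was 0.29. The gene pair with the highest rho was CNN1 and TAGLN (0.84). It was 0.66 with flow cell means removed and 0.73 without cats 11 and 31. The ranks of CNN1 in the 3 libraries without a read and the 4 with 1 to 3 reads are largely counting error. MYL9 and TPM2 had a rho of 0.83, which was 0.83 and 0.77 in the same settings. CNN1 had a rho of 0.13 with MYL9 and 0.13 with TPM2, which was 0.43 and 0.51 with flow cell means removed. ACTA2 had a rho of 0.01 with CNN1, 0.27 with TAGLN and 0.50 with MYH11. TAGLN and SMTN had a rho of -0.57, which was -0.59 with flow cell means removed but -0.26 without cats 11 and 31. CNN1 with TAGLN and MYL9 with TPM2 thus varied together, and the 6 tested genes did not rank the libraries in 1 common order.

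**Figure D3:**
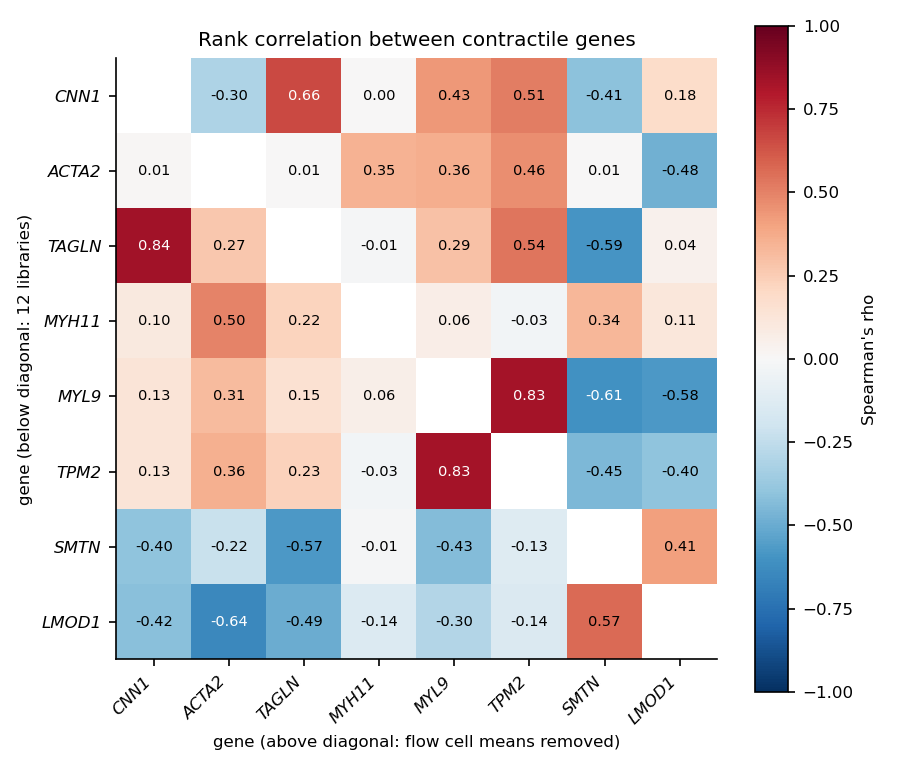
Spearman's rho between the log2 values of each pair of contractile genes over 12 libraries, below the diagonal as deposited and above it with flow cell means removed; red is positive and blue negative. CNN1 with TAGLN (0.84) and MYL9 with TPM2 (0.83) have the highest rho.

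**Figure D4:**
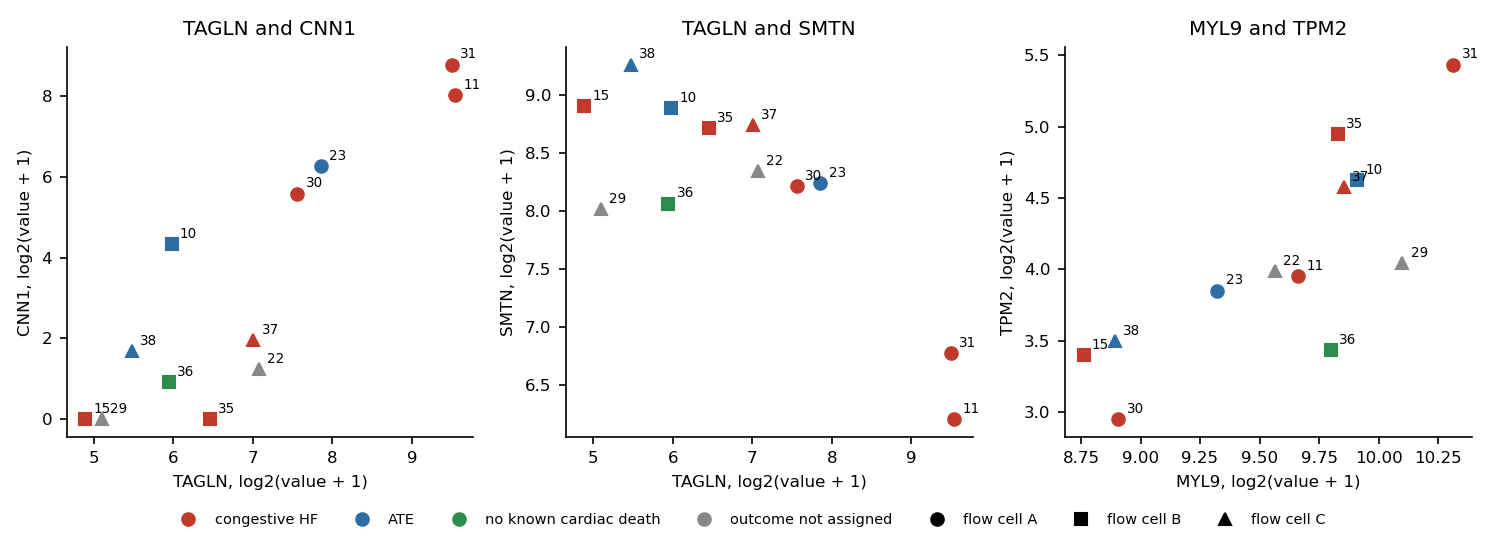
Values of 3 gene pairs as log2(value + 1), each point 1 library with its cat number, the outcome as colour and the flow cell as symbol. Cats 11 and 31 stand apart with high CNN1 and TAGLN and low SMTN, whereas MYL9 and TPM2 vary together across all 3 flow cells.

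By the mean log2 value of the 8 genes less that of all tested genes, the libraries ranked from 1.12 in cat 31, 0.88 in cat 23, 0.83 in cat 11 and 0.73 in cat 10 down to -0.57 in cat 15. Cat 30 came next after cat 10, with 0.51. All libraries of flow cell A thus ranked near the top, from both outcomes, beside cat 10 of flow cell B. The mean includes CNN1, which was chosen for its range, so that this order is no separate result. The genes whose values ranked most like CNN1 over the 12 libraries were TNKS2 (rho 0.94), PALLD (0.93), PRMT5, CALR and ATG4C (each 0.92). PALLD encodes palladin, an actin-bundling protein of stress fibres, and CALR encodes calreticulin, a calcium-binding chaperone. The genes most like the mean of the 8 were NDE1 (0.93), HSPB3 (0.92), PMEPA1 (0.92), SMS (0.92) and MSN (0.90), of which MSN encodes moesin, a linker between membrane and actin. Without cats 11 and 31, PALLD had a rho of 0.98 with CNN1. The genes named here were picked out of 8715 by their rho in these same libraries. CNN1 had no read in 3 libraries and 1 to 3 reads in 4, so that the order of these libraries is largely counting error.

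Other genes of the pathway were counted in lists made by name, with all 12 libraries. These lists and those of the cell types below were chosen with earlier results of these data known. A share of called genes above that of all tested genes is thus a description and no separate support. Without the libraries of cats 11 and 31 limma called 0 genes, those of the lists included. Of 13 tested regulators of the contractile programme, 0 were called between flow cell A and the others by limma, where 5.12% of all tested genes were called. In this list 1 gene had an unadjusted p under 0.05 with limma, edgeR called 0 and DESeq2 called 1. Among the regulators, the coactivator MYOCD, with 1 to 15 reads per library, differed by -0.02 (standard error 0.51). SRF, with 11 to 55 reads, differed by 0.15 (standard error 0.27). A difference of MYOCD or SRF within this error could be missed, and a count of 0 in a list this short says little. Among the 15 tested genes for phosphorylation and relaxation of smooth muscle myosin, PPP1CB, the catalytic subunit of myosin phosphatase, was higher on flow cell A by 0.90 (limma adjusted p = 0.0202). The genes of its regulatory subunits did not follow it. PPP1R12A differed by 0.01, PPP1R12B by -2.18 and PPP1R12C by -0.81, and limma called none of them. Of 6 tested receptors and channels of vascular tone, 1 was lower, where 3.5% of all tested genes were lower. It was the calcium channel gene CACNA1C, by -1.43 (limma adjusted p = 0.0369, not called by edgeR), which cardiomyocytes also express. The alpha-2B adrenergic receptor gene ADRA2B was at 0 in every library.

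In the list of other smooth muscle cytoskeleton and adhesion genes, 6 of 24 tested were higher on flow cell A and 0 were lower. Of all tested genes 1.62% were higher and 3.5% lower. The median difference was 0.53 against 0.03 over all tested genes. ACTN1, the alpha-actinin of stress fibres, had values of 28.2 to 118 on flow cell A and 2.72 to 27.2 elsewhere, a difference of 2.39 (limma adjusted p = 0.0145). PDLIM7, VIM and TPM4 were higher by 1.99, 1.08 and 1.07, and the other two were ITGB1 and VCL. Cytoplasmic actin ACTB was also higher, by 1.25 (limma adjusted p = 0.0201).

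Of the myofibroblast and matrix genes, 6 of 15 tested were higher on flow cell A and 0 were lower, with a median difference of 1.98. The shares over all tested genes were 1.62% higher and 3.5% lower. TNC, the matrix protein tenascin C of healing tissue, had values of 84.2 to 709 on flow cell A and 0 to 17.8 elsewhere, a difference of 5.53 (limma adjusted p = 0.00233). COL1A1, a chain of type I collagen, ran from 48.0 to 103 against 2.72 to 25.7, a difference of 2.63. THBS1 and COL5A1 were higher by 2.12 and 2.61, and FN1 and COL3A1 were the other two.

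The markers of other cell types were counted in the same way. Of 8 fibroblast genes, 10 endothelial genes, 4 pericyte genes and 8 macrophage genes tested, 0 were called by limma in this comparison or by edgeR, and DESeq2 called 1, a pericyte gene. Of all tested genes limma called 5.12%, so that a count of 0 in lists this short says little. An unadjusted p under 0.05 was found with limma for 1 fibroblast gene and 1 pericyte gene. Of 12 cardiomyocyte genes 5 were lower on flow cell A and 0 were higher, where 3.5% of all tested genes were lower and 1.62% higher. The median difference of this list was -0.86. TNNT2, the troponin that anchors the complex to tropomyosin, had values of 2763 to 3746 on flow cell A and 5516 to 11001 elsewhere. TNNI3, MYL3 and MB were lower by -1.64, -1.11 and -1.09, and TNNC1 was the other one. The summed cardiomyocyte level was 140969 to 173540 CPM (reads scaled to the library total) on flow cell A and 149707 to 262258 elsewhere, and that of the myofibroblast and matrix genes was 2311 to 5257 CPM against 582 to 3048 CPM. No defining marker of these lists was at 0 in every library. The part of cell make-up or of the flow cell in the differences of CNN1, TAGLN and SMTN was not tested.

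**Figure D5:**
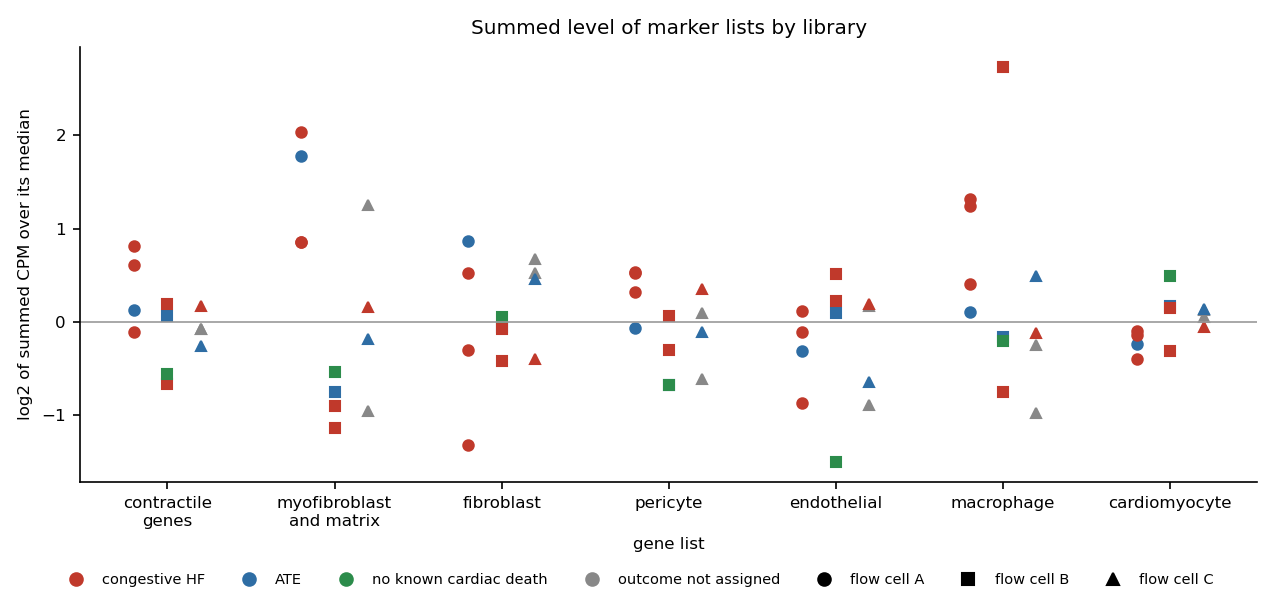
Summed level of each gene list in each library as the log2 of its CPM over the median of the 12 libraries, with flow cells A, B and C side by side, the flow cell as symbol and the outcome as colour. The myofibroblast and matrix list is high on flow cell A, although 1 library of flow cell C lies within its range. The cardiomyocyte list is below its median in the 4 libraries of flow cell A and also in those of cats 35 and 37.

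The study set outcomes side by side, and the contractile genes did not pass a test between congestive HF (n = 6) and ATE (n = 3). CNN1 was 0, 25 and 439 (lowest, median and highest) with congestive HF and 2.21, 19.2 and 76.6 with ATE. TAGLN was 28.6, 158 and 744 with congestive HF and 43.4, 62.0 and 231 with ATE, a difference of 1.06 (95% interval -0.84 to 2.95, limma adjusted p = 0.960). SMTN was 72.9, 358 and 479 against 302, 472 and 614, a difference of -0.87 (95% interval -2.07 to 0.33, limma adjusted p = 0.960). The ranges of both genes overlapped between outcomes.

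ACTA2 was 58.5, 114 and 147 with congestive HF and 62.5, 65.4 and 126 with ATE, a difference of 0.39 (95% interval -0.32 to 1.10, limma adjusted p = 0.960). MYL9 and TPM2 differed by 0.18 (95% interval -0.59 to 0.95) and 0.22 (95% interval -0.91 to 1.35). MYH11 was 1.36, 3.90 and 16.8 against 3.68, 10.7 and 12.4. The cat without known cardiac death had 0.890 for CNN1, 60.5 for TAGLN and 49.0 for ACTA2. No gene of the lists was called between outcomes by limma, edgeR or DESeq2, and over all 8715 genes limma called 0 (0%), edgeR 0 and DESeq2 1, and 384 genes (4.41%) had an unadjusted p under 0.05 with limma. The differences of TAGLN and SMTN were 0.69 and -0.62 with the flow cell as a covariate, and 0.04 and -0.15 without cats 11 and 31, both of which had congestive HF.

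Whether genes follow the extent of scarring was asked over 8 cats for which the myocardial fibrosis, the share of fibrous tissue in stained sections, was known. Spearman's rho with fibrosis was 0.36 for CNN1, 0.10 for TAGLN, -0.05 for ACTA2, -0.24 for MYL9, -0.07 for TPM2 and -0.05 for SMTN. Pearson's r on the log2 scale was 0.19, 0.01, -0.05, -0.26, -0.12 and -0.04 in the same order. The unadjusted exact permutation p was 0.840 for TAGLN, 0.935 for ACTA2, 0.582 for MYL9, 0.882 for TPM2 and 0.935 for SMTN, with adjusted p = 1 for each. Of all tested genes, 0 were called (0%) and 247 (2.83%) had an unadjusted p under 0.05. With cats 23 and 15 left out, since their fibrosis lay farthest from the median, Pearson's r was 0.31 for TAGLN, 0.37 for MYL9 and -0.45 for SMTN. With flow cell means removed, over 7 cats, Pearson's r was -0.39 for TAGLN and 0.18 for SMTN.

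Over the 9 cats with an age, rho was -0.55 for MYL9 (exact permutation p = 0.133, adjusted p = 0.921), -0.47 for TPM2 (p = 0.213, adjusted p = 0.947), 0.45 for SMTN (p = 0.230, adjusted p = 0.955), 0.42 for ACTA2 (p = 0.270, adjusted p = 0.963), -0.17 for TAGLN (p = 0.678, adjusted p = 0.999) and -0.15 for CNN1. Pearson's r was -0.63, -0.45, 0.41, 0.34, -0.20 and -0.11 in that order. None of these passed the test. With flow cell means removed, ages were permuted within flow cells. Pearson's r was then 0.45 for ACTA2 (exact permutation p = 0.0625), 0.80 for SMTN (p = 0.0903), -0.66 for MYL9 (p = 0.108), -0.70 for TAGLN (p = 0.118) and -0.47 for TPM2 (p = 0.292), with adjusted p from 0.637 to 0.735. Without cats 30 and 15, which are far from the median age, Pearson's r was -0.26 for MYL9 and 0.03 for TPM2, and without cats 30 and 36 it was -0.51 and -0.47. Of all tested genes 0 were called (0%), and 415 (4.76%) had an unadjusted p under 0.05. In simulated data with 200 genes that differed by a log2 of 3 between the lowest and highest trait, the rank test with adjustment over 8715 genes recovered 0% for fibrosis and 5.5% for age, so that a count of 0 says little at this number of cats.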

How the data were processed

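Left ventricular tissue of 12 cats was sequenced as direct RNA on Nanopore flow cells. The authors called bases with Guppy, kept reads above a quality score, mapped them to felCat9 with Minimap2 and counted them with featureCounts. Whether strand was used is not given in the sources used here, so that overlapping genes cannot be told apart. The deposited values are a signal: whole reads divided by 1 size factor per library, recognised because 100% of values are whole multiples (tolerance 1e-06 reads) of 1 read. The paper does not name this division.

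A gene was tested if 3 or more of the 10 libraries with an outcome held 10 or more of its reads (8715 genes). limma with an intensity trend on log2(value + 1) compared groups, and Spearman's rho was used for fibrosis and age, with exact two-sided permutation of the trait, with Benjamini-Hochberg adjustment over all tested genes. Fold changes on this scale are understated for low genes. edgeR and DESeq2 were run on the recovered reads. Alternatives were other pseudocounts, filters, scalings, subsets of libraries and covariates. Outcomes, ages and fibrosis were joined by cat number from the study's cohort list. The contractile genes and the lists were chosen with earlier results of these data known. Named genes are the 8 contractile genes, the 5 most like CNN1 and the 5 most like the mean of the 8, up to 4 called genes per list, genes at 0 in all libraries, and near-identical relatives. Where more are named, they complete a count of called genes, or are regulators or subunits that bear on a named gene. One gene of the list for phosphorylation and relaxation of myosin is not reported here. The tests were tried on simulated data with 200 genes changed by a log2 of 3, of which limma recovered 97% between flow cells and 95% between outcomes. The data simulated for outcomes held no difference between flow cells. The change set was also larger than any tested difference of a contractile gene between outcomes and, CNN1 aside, between flow cells. The 95% and the 97% thus do not apply to these differences. No coordinates or sequences were used. Tools were R 4.3.3, limma 3.58.1, edgeR 4.0.16, DESeq2 1.42.0, Python 3.11.15, scipy 1.17.1 and matplotlib 3.10.9.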

Additional observations from a re-analysis of the deposited data

Results flagged for a closer look

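In 28 groups of contractile gene and library group, CNN1 left out because its range chose it, 1 library lay apart from the rest of its group by Dixon's criterion, and chance flags about 1 in 20 groups. MYL9 in cat 15 had a value of 433 on flow cell B, where the other 3 libraries had 889.5 to 960.4. Cat 15 also had the lowest TAGLN value and the lowest MYH11 value of all 12 libraries, the latter from 1 read. Its SMTN value of 479, in contrast, ranked 2 from the top.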

How the results depend on the processing

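No paired analysis was possible because the flow cells share no cat number. Between flow cell A and the others, limma called 446 genes, and the number was 864 with DESeq2, 183 against flow cell B alone, 67 against flow cell C alone, 4 among cats with congestive HF alone, 0 without the libraries of cats 11 and 31 (chosen after seeing the data) and 51 to 501 with each library left out in turn, of which the 51 was without cat 11 and 129 was without cat 31. edgeR called 430, of which 185 were higher, against 141 of 446. With each library left out TAGLN stayed between 2.32 and 2.98, and SMTN between -1.55 and -0.87, called in 5 of 12 fits.
SMTN also missed the threshold when all genes with a read were tested (adjusted p = 0.0640 with limma), and against flow cell B (0.117) or C (0.166) alone. Uncalled genes changed sign in single settings: ACTA2 was -0.0050 against flow cell C alone, MYL9 was 0.045 in libraries of known outcome and 0.15 among cats with congestive HF, and TPM2 was 0.17 with edgeR, 0.17 with DESeq2 and 0.020 against flow cell C alone. With each library left out, MYL9 ran from -0.29 to 0.18 and TPM2 from -0.48 to 0.35.
Between outcomes the number called was 1 with DESeq2 and 0 to 1 with each library left out. Without cats 11 and 31, MYL9 was -0.038 and TPM2 -0.022, and with each library left out they ran from -0.061 to 0.45 and from -0.027 to 0.54.
For fibrosis, Pearson's r with flow cell means removed, over 7 cats, was -0.39 for TAGLN and 0.18 for SMTN, against the sign of their rho. Spearman's rho turned to 0.13 for ACTA2 with the libraries labelled cats 22 and 29 entered as those cats. It turned to 0.14 for MYL9 and 0.029 for TPM2 without cats 23 and 15. With total fibrosis it turned to -0.024 for TAGLN, 0.12 for TPM2 and 0.12 for SMTN. With each cat left out rho ran from -0.57 to 0.18 for ACTA2, -0.29 to 0.43 for TAGLN, -0.43 to 0.036 for MYL9, -0.36 to 0.39 for TPM2 and -0.29 to 0.14 for SMTN. For age, it turned to -0.071 for ACTA2 without cats 30 and 36, to 0.036 for TAGLN and 0.14 for TPM2 without cats 30 and 15, and to 0.064 for TAGLN with the libraries labelled cats 22 and 29 entered. For TAGLN it ran from -0.43 to 0.071 with each cat left out. The cause of these changes was not tested. MYH11 and LMOD1 had too few reads for any test, and values near 3 reads are set by counting error.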

Other observations

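Among genes chosen after their values were seen, TAGLN had its highest rank correlations over the 12 libraries with MSN (rho 0.99) and CFL2 (0.97), which encode the actin-linked proteins moesin and cofilin 2. MSN had values of 162 to 403 on flow cell A and 44.9 to 161 elsewhere. SMTN had its highest rank correlations with CB3H15orf59 (rho 0.94), ZNF544 (0.94), ISCU (0.92) and STAMBPL1 (0.92). MYL1, a myosin light chain of fast skeletal muscle, had a rho of 0.90 with the mean of the 8 contractile genes, with values of 101 to 2379 on flow cell A and 2.22 to 124 elsewhere. RRAS2, a small GTPase, had a rho of 0.89 with CNN1 and values of 99.4 to 649 on flow cell A and 20.5 to 55.4 elsewhere. The keratin genes KRT18 and KRT19, taken as mesothelial markers, were at 0 in every library.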
